A study of Gallus gallus with 27 samples.

Results

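The region described is chicken chromosome 8 from 26 to 29 Mb in the galGal5 build, a 3 Mb span that holds 510 of the 140062 intervals in the deposited chromatin accessibility table. Its members are every interval of the table on that chromosome whose start lies in the span, 11.93% of the 4274 intervals on chromosome 8. The region was chosen by the high read densities, in HH18 double-positive cells, of a pair of its intervals, starting at 27825364 and 27835367. Values of HH18 double-positive cells are therefore given as descriptions, without tests. All members are 200 bp wide, and each is named below by its start coordinate as the file lists it, so that the pair spans chr8:27825364-27825564 and chr8:27835367-27835567. Neighbouring starts were a median of 4812 bp apart, against 4948 bp on the whole chromosome, and ranged from 666 to 35395 bp. Just inside the limits, the first member (26018302) had group means of 1.64 to 4.95 CPM and the last (28995723) 1.30 to 2.96 CPM. The nearest intervals outside (25985580 and 29017563) had 0.666 to 2.16 and 3.60 to 11.8 CPM.

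In ATAC-seq a transposase cuts accessible DNA and tags it for sequencing, so a high read density marks open chromatin. The cells came from the vagal regions of wild-type chick embryos at stages HH18 and HH25 of the Hamburger-Hamilton series. All embryos had received both reporters, NC2:citrine and E2:citrine, by electroporation at HH8/9. The cells were sorted into NC2+ E2+ cells (double-positive), NC2- E2+ cells (E2-only) and NC2- E2- cells (double-negative), with 3 libraries per stage and population. The labels put the first pair of populations in the neural crest and call the third a negative control. The third came from embryos given the same plasmids, but whether its cells carry them is not known. Citrine is the fluorophore the labels give for NC2 as well as for E2, and they do not say how the sort separated the signals. Crest cells that took up no plasmid would fall among the double-negative cells, and their share was not tested.

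The neural crest is a migratory embryonic population that leaves the dorsal neural tube. At the vagal level it gives rise to the enteric nervous system, to other peripheral neurons and glia, and to mesenchyme of the heart outflow tract. Distal enhancers in such cells are often open in 1 lineage and closed in others, and open or close as the cells mature, whereas promoters are often open in many cell types. NC2 and E2 are, as background, enhancers of the crest transcription factor genes FOXD3 and SOX10. In a RefSeq table of another chicken assembly, GRCg7b, FOXD3 lies on chromosome 8, next to ATG4C and ALG6. Its position in galGal5 was not established here, and no member was assigned to a gene. For the same reason the sorted populations could not be checked against marker genes. Reads from a plasmid copy of an enhancer would align to the genomic original. Which interval, if any, holds such an original is not given, and the part of plasmid reads in any value was not tested.

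The 18 libraries held 992341 to 6976050 counted reads, and the region took 0.321% to 0.428% of them. The shallowest was HH18 double-negative replicate 2, where 3 counts equal 3.02 CPM before scaling. The lowest deposited count was 1 in every library, so a count of 1 may stand for 0 reads. Values are CPM, read counts brought to a common library size with TMM-scaled totals, listed in the order of replicates 1, 2 and 3. Differences are log2 fold changes with standard errors (SE), called at an edgeR quasi-likelihood adjusted p below 0.05 over all 134020 tested intervals. Of the 510 members, 488 were tested, and the 22 others had no group mean above 3.52 CPM.

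Interval 27825364 was open in double-positive cells at both stages and nearly closed in the other HH18 populations. Its density in HH18 double-positive libraries was 25.6, 30.6 and 22.6 CPM, whereas HH18 E2-only libraries had 0.639, 0.867 and 0.222 CPM and HH18 double-negative libraries 0.268, 1.0 and 0.342 CPM. Each HH18 double-negative library held the lowest deposited count, for a sum of 3 counts against 222 in the double-positive libraries. At HH25 the double-positive libraries had 23.8, 14.4 and 22.1 CPM, the E2-only libraries 6.68, 6.02 and 6.52 CPM, and the double-negative libraries 0.660, 0.398 and 3.03 CPM. The 3 HH25 populations did not overlap, with double-positive cells highest and double-negative cells lowest.

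At HH25, density at 27825364 was higher in double-positive than in double-negative cells by a log2 fold change of 3.98 (SE 0.37, edgeR adjusted p = 1.78e-16). It was also higher in double-positive than in E2-only cells, by 1.65 (SE 0.27, edgeR adjusted p = 3.18e-06), and in E2-only than in double-negative cells, by 2.33 (SE 0.43, edgeR adjusted p = 2.71e-05). Without HH25 double-negative replicate 3, whose density of 3.03 CPM was the highest of its group, the differences over double-negative cells were 5.12 (double-positive) and 3.53 (E2-only). From HH18 to HH25 the E2-only cells rose by 3.50 (SE 0.54, edgeR adjusted p = 2.08e-08). As a ratio of summed counts per TMM-scaled total that rise was 11.96-fold, with an exact 95% interval of 5.58 to 30.6 for counting error only. No difference was called between HH18 E2-only and double-negative cells (0.42, edgeR adjusted p = 0.82), where the summed counts were 7 and 3. The stage change in double-negative cells was 1.58 (edgeR adjusted p = 0.244), and the difference between the stage changes of E2-only and double-negative cells was 1.92 (edgeR adjusted p = 0.392), so the rise was not shown to be particular to E2-only cells.

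Interval 27835367, which starts 10003 bp further on, had the highest mean of all members in both HH18 crest populations. HH18 double-positive libraries had 173, 278 and 271 CPM and HH18 E2-only libraries 161, 208 and 255 CPM, ranges that overlapped. HH18 double-negative libraries had 6.17, 7.01 and 10.9 CPM. At HH25 the double-positive libraries had 6.41, 13.3 and 18.7 CPM, the E2-only libraries 3.34, 2.01 and 4.27 CPM, and the double-negative libraries 0.990, 0.797 and 1.87 CPM. Every HH25 crest library was thus far below every HH18 crest library, and the 3 HH25 populations again did not overlap. As at every member, the part of plasmid reads in these densities was not tested.

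The HH18 difference at 27835367 between E2-only and double-negative cells was a log2 fold change of 4.67 (SE 0.26, edgeR adjusted p = 1.65e-18). Density fell by 6.02 on the log2 scale (SE 0.26, edgeR adjusted p = 4.9e-24) from HH18 to HH25 in E2-only cells and by 2.76 (SE 0.49, edgeR adjusted p = 3.5e-05) in double-negative cells. The fall was larger in E2-only cells, by 3.26 log2 units (-3.26, SE 0.72, edgeR adjusted p = 0.00117). At HH25 double-positive cells stayed above double-negative cells by 3.47 (SE 0.42, edgeR adjusted p = 6.47e-09) and above E2-only cells by 2.06 (SE 0.35, edgeR adjusted p = 3.84e-05). The HH25 difference between E2-only and double-negative cells, 1.41 (SE 0.53), was not called (edgeR adjusted p = 0.0829). Without HH25 E2-only replicate 2 it was 1.74 (edgeR adjusted p = 0.032), and it would then be called.

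The pair thus differed in E2-only cells at HH18, where 27825364 lay at the 3.65th percentile of all intervals and 27835367 at the top of the scale. They also differed across stages in double-positive cells. There the means of 27825364 were 26.3 ± 4.04 and 20.1 ± 5.01 CPM (SD, n = 3) at HH18 and HH25, and those of 27835367 were 240.6 ± 58.5 and 12.8 ± 6.17 CPM.

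**Figure D1:**
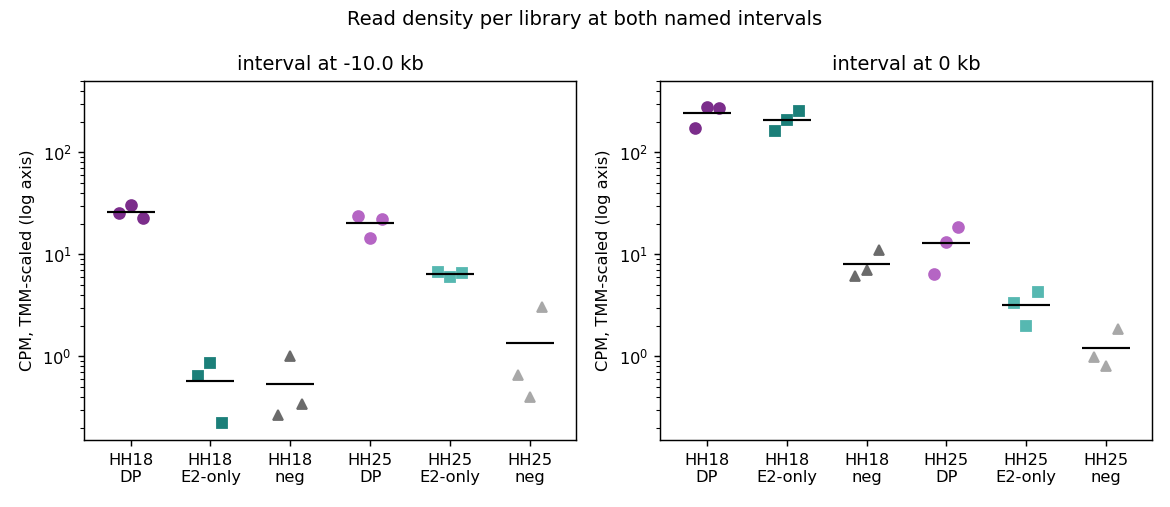
Read density in CPM (log axis) in each of the 18 libraries at the intervals starting at 27825364 (left, labelled -10.0 kb) and 27835367 (right, labelled 0 kb). Points are libraries and bars are means of 3; DP is double-positive and neg double-negative. The left interval is high in double-positive cells at both stages, and the right one exceeds 160 CPM in both HH18 crest populations and stays below 20 CPM at HH25.

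Within 25 kb of the pair lay 9 further members, and they did not share one pattern. Interval 27820283 behaved most like 27825364 at HH25, with 16.6, 13.7 and 10.5 CPM in double-positive, 1.67, 3.61 and 5.62 CPM in E2-only and 1.16, 0.398 and 0.233 CPM in double-negative libraries. Its double-positive minus double-negative difference of 4.29 (SE 0.46, edgeR adjusted p = 1.57e-13) was the highest of any called member in that comparison, and it was 5.21 without HH25 double-negative replicate 1. At HH18 it had 29.5, 22.0 and 23.7 CPM in double-positive libraries and at most 3.04 CPM in any other library.

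Interval 27828025, between the pair, had 29.2, 32.4 and 27.0 CPM in HH18 double-positive libraries and 7.54, 4.32 and 4.62 CPM at HH25. It remained above double-negative cells at HH25, by 2.53 (SE 0.52, edgeR adjusted p = 6.39e-05). Interval 27810542 was instead highest in HH18 E2-only libraries (48.2, 47.7 and 47.4 CPM), next in HH18 double-positive (34.1, 31.3 and 29.5 CPM), and had 16.1, 12.0 and 17.8 CPM in HH18 double-negative libraries. It fell in E2-only cells by 2.44 (SE 0.22, edgeR adjusted p = 4.97e-18) and in double-negative cells by 1.76 (SE 0.29, edgeR adjusted p = 1.84e-06). At HH25 its 3 populations had means of 8.58 CPM (double-positive), 8.78 CPM (E2-only) and 4.56 CPM (double-negative).

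The other members near the pair had lower densities. Intervals 27839783, the next after 27835367, and 27801042, the farthest on the other side, had means of 5.34 to 8.96 and 3.09 to 6.24 CPM, with no call between populations at either stage. Interval 27847050 was the reverse of the pair at HH25, lower in double-positive (0.377, 0.360 and 1.54 CPM) than in double-negative libraries (3.30, 1.99 and 3.27 CPM), by -1.70 (SE 0.62, edgeR adjusted p = 0.0314). That call rested on summed counts of 8 and 44, and the values of 0.377 and 0.360 CPM are the lowest deposited count. It was lost without HH25 double-positive replicate 1 or replicate 2, and without HH25 double-negative replicate 3. Intervals 27853308 and 27854711 were highest in HH18 E2-only cells, at 4.78 and 3.64 CPM. They exceeded double-negative cells there by 2.53 (SE 0.60, edgeR adjusted p = 0.000347) and 2.18 (SE 0.62, edgeR adjusted p = 0.00339).

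Interval 27859099 was set by single libraries. It had 79.3 CPM in HH25 E2-only replicate 1 but 0.401 and 0.900 CPM in the other replicates, and 17.3 CPM in HH25 double-positive replicate 1 but 1.08 and 1.54 CPM in the others. Across the whole table a total of 9 pairs of interval and group had a replicate of at least 10 CPM and 10 times the next, a limit chosen after the values were seen, and this interval gave 2 of them. Its stage change in E2-only cells, 5.23 (edgeR adjusted p = 0.013), became 0.02 (edgeR adjusted p = 0.993) without HH25 E2-only replicate 1. It is not used as an example of any pattern below, but the counts that follow still include it.

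Both intervals of the pair lay in a stretch, from 27.7 to 28 Mb, rich in members that were open in HH25 double-positive cells. The stretch was marked out after the values were seen, so its counts are a description. Of its 61 members 60 were tested, and 22 (36.7%) were called higher in HH25 double-positive than in double-negative cells, with 1 called lower. Over all intervals tested, 14.5% were called higher and 9.79% lower in that comparison. Among the 428 tested members outside the stretch 45 (10.5%) were higher and 63 (14.7%) lower. In windows of 100 kb, the one from 27.7 Mb had 9 of 20 tested intervals higher, a share reached by 12 of 3331 windows with at least 15 tested intervals across the table. The window from 27.8 Mb had 8 of 20, a share that 46 windows reached, and that from 27.9 Mb had 5 of 20, which 429 reached.

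The 22 members spanned 272.8 kb, from 27707693 to 27980529. In 21 of them no double-positive library overlapped a double-negative one, and the same held in 60 of all 67 members called higher in that comparison. The 60 include the 21, and the share over all called intervals was not counted. Nothing particular to the stretch is therefore read from the lack of overlap. Their HH25 means had a median of 9.47 CPM (range 2.43 to 23.7) in double-positive, 3.42 CPM (0.554 to 9.95) in E2-only and 1.31 CPM (0.596 to 6.48) in double-negative cells. Log2 fold changes over double-negative cells ran from 0.91 to 4.29. The E2-only median lay between the others, but the 22 were picked by the difference between those others, which favours such an order. In the stretch 8 members were called higher in E2-only than in double-negative cells and 1 lower. Of all intervals tested, 5.35% were called higher and 5.14% lower in that comparison. Without HH25 double-negative replicate 3 the number higher was 5 (8.33%), against 4.18% of all intervals. In the direct comparison 16 members of the stretch were higher in double-positive than in E2-only cells and 1 lower, where 8.49% and 3.17% of all intervals were called. Without HH25 double-positive replicate 1 the number higher was 10 (16.4%), against 6.47% of all intervals. At HH18, as a description, the same 22 members had medians of 15.4 CPM in double-positive, 1.95 CPM in E2-only and 1.53 CPM in double-negative cells.

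Several of these members were nearly closed in double-negative cells. Interval 27893672 had 42.7, 26.5 and 36.8 CPM in HH18 double-positive and 9.43, 10.1 and 11.5 CPM in HH25 double-positive libraries. The HH25 E2-only libraries had 3.97, 3.21 and 5.17 CPM there and the double-negative libraries 0.825, 0.797 and 0.233 CPM, so the 3 populations did not overlap. Its E2-only minus double-negative difference, 2.59 (SE 0.54, edgeR adjusted p = 0.00024), was the highest among called members in that comparison. With every library thinned to the lowest total that difference was 0.23 (edgeR adjusted p = 0.969), so its size depended on read depth.

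Interval 27974369 had overlapping levels in double-positive cells at both stages. Its libraries had 13.8, 16.4 and 11.7 CPM at HH18 and 12.8, 20.5 and 9.24 CPM at HH25. Against those, HH25 E2-only libraries had 1.88, 3.01 and 3.37 CPM and double-negative libraries 0.330, 1.79 and 1.63 CPM. Double-positive cells were higher than E2-only cells by 2.32 (SE 0.35, edgeR adjusted p = 3.09e-07) and than double-negative cells by 3.52 (SE 0.40, edgeR adjusted p = 3.97e-12). Interval 28000537, just past the stretch, had 13.6, 13.3 and 13.1 CPM in HH25 double-positive libraries, with differences of 2.09 (SE 0.34) over E2-only and 3.06 (SE 0.38) over double-negative cells (edgeR adjusted p = 1.47e-06 and 5.29e-11).

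**Figure D2:**
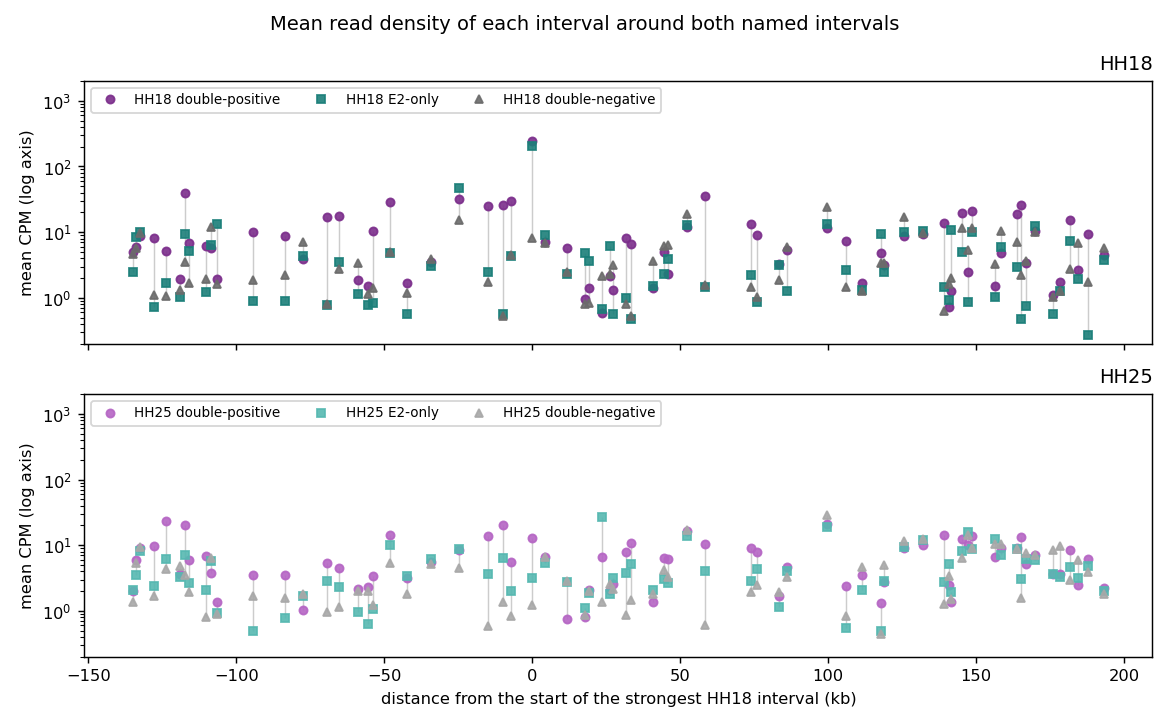
Mean CPM (log axis, n = 3) of every member from 27.7 Mb to just past 28 Mb against distance from the start of 27835367 in kb, at HH18 (top) and HH25 (bottom); symbols are the 3 populations and grey lines join those of 1 interval. The highest HH18 points are the double-positive and E2-only means of 240.6 and 207.8 CPM at 0 kb, and the E2-only mean of 26.9 CPM at 23.7 kb in the lower panel is that of 27859099, which rests on replicate 1.

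Across the whole region at HH25, 67 members (13.7%) were higher and 64 (13.1%) lower in double-positive than in double-negative cells. The first share lay close to that over all intervals. The second exceeded it, but the lower calls numbered 35 (7.07%, against 5.6% of all intervals) without HH25 double-positive replicate 3. Over the rest of chromosome 8, 12.8% were higher and 8.41% lower. The median log2 difference of the tested members was -0.13, against -0.01 over all intervals. Between double-positive and E2-only cells 34 members (6.97%) were higher and 17 (3.48%) lower, both near the background. The lower calls numbered 8 without HH25 E2-only replicate 2 (1.61%, against 2.07% of all intervals). They numbered 11 without HH25 E2-only replicate 3 (2.21%, against 2.48%) and 10 without HH25 double-positive replicate 3 (2.02%, against 1.85%). Of the 34, 29 (5.94% of tested members) were higher in double-positive cells than in each other population, 14 of them in the stretch, against 7.45% of all intervals. With libraries scaled by the median of ratios the split between double-positive and E2-only cells was 30 higher and 27 lower (6.15% and 5.53%). All intervals then split 7.2% and 4.4%. By library totals the members split 28 and 32 (5.74% and 6.56%) and all intervals 6.8% and 5.15%.

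Members higher in double-positive cells also lay outside the stretch, where the windows from 26.1 and 27.0 Mb held 5 each among 13 and 14 members. In the stretch the window from 27.9 Mb held 5 of 20, and over all intervals tested 14.5% were called higher. Both windows outside fell below the minimum of 15 tested intervals, so the count of windows above left them out. Windows rich in such members were thus not particular to the stretch. Interval 26182842, in the window from 26.1 Mb, had 10.9, 13.3 and 13.3 CPM in HH25 double-positive, 3.13, 3.81 and 1.80 CPM in E2-only and 0.825, 1.59 and 3.73 CPM in double-negative libraries. Its differences were 2.09 (SE 0.34, edgeR adjusted p = 3.07e-06) over E2-only and 2.71 (SE 0.37, edgeR adjusted p = 2.24e-09) over double-negative cells, the latter 3.37 without HH25 double-negative replicate 3. Interval 26989165 had 7.54, 7.92 and 7.96 CPM in HH25 double-positive libraries and at most 2.25 CPM in the other HH25 libraries. At HH18 its double-positive and E2-only libraries overlapped, with means of 9.82 ± 3.43 and 7.76 ± 3.29 CPM (SD, n = 3), and E2-only cells then fell by 2.36 (SE 0.43, edgeR adjusted p = 1.2e-06).

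**Figure D3:**
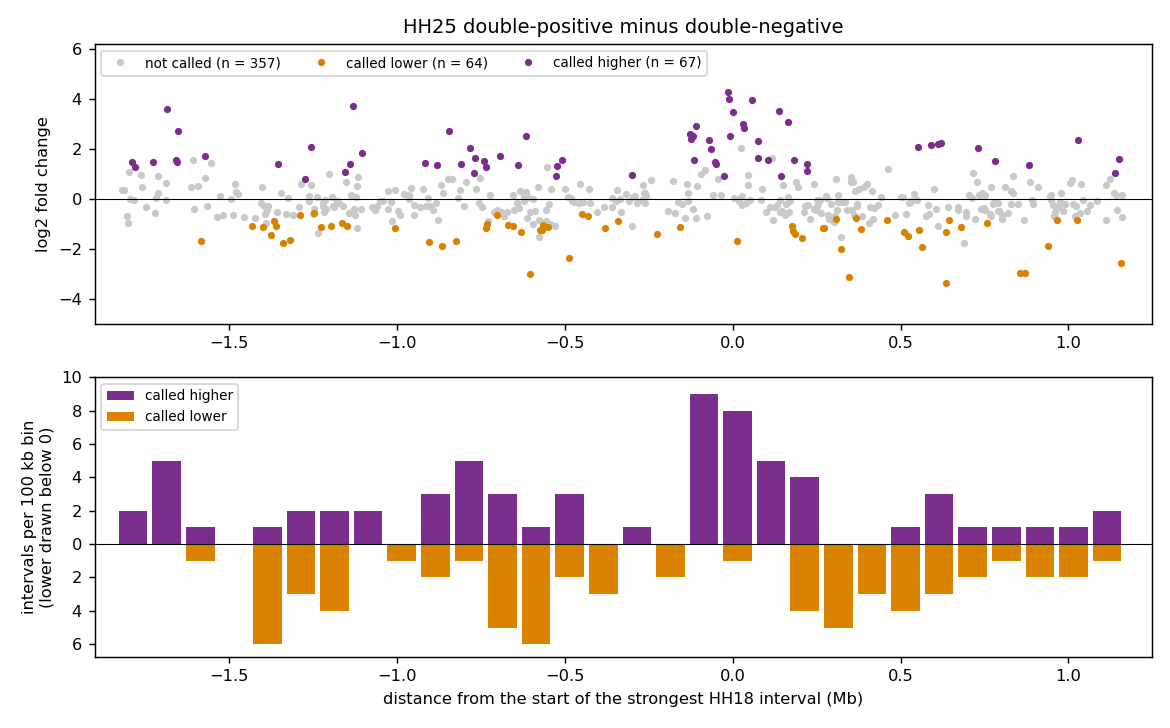
HH25 double-positive minus double-negative log2 fold change of the 488 tested members (top) and the number called per 100 kb window (bottom), against distance from the start of 27835367 in Mb. Of the 67 higher members (purple) 22 lie in the windows of 9, 8 and 5 around 0 Mb and 45 elsewhere, with up to 5 per window, and the 64 lower members (orange) are spread over the region.

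Other members were lower in crest than in double-negative cells. At HH25 18 members (3.69%) were higher and 43 (8.81%) lower in E2-only than in double-negative cells, where 5.35% and 5.14% of all intervals were. Without HH25 double-negative replicate 2 those counts were 13 and 20 (2.62% and 4.03%), against 3.76% and 2.84% of all intervals. Without HH25 E2-only replicate 1 they were 19 and 20 (3.83% and 4.03%), against 4.41% and 2.8%. The lower count was 25 to 28 without HH25 E2-only replicate 2 or 3 or double-negative replicate 3. Those were 5.03% to 5.65% of members, against 3.08% to 3.63% of all intervals. With library totals alone the counts were 27 and 36 (5.53% and 7.38%), against 6.82% and 4.09%. Of the members, 25 (5.12%) were lower in both crest populations at HH25, against 3.44% of all intervals. None of the 25 lay in the stretch, but it was marked out by calls in the opposite direction, so nothing is read from that. Of the 25, 14 (2.87%, against 1.96% of all) were also lower in E2-only cells at HH18. The HH25 means of the 14 had a median of 12.2 CPM (range 4.03 to 54.9) in double-negative, 2.02 CPM (1.12 to 26.1) in double-positive and 2.02 CPM (1.14 to 33.4) in E2-only cells. In 10 of the 14 every crest mean at both stages was under 5 CPM, a limit chosen after the values were seen. Over the whole table the median interval had 4.03 to 4.26 CPM in the crest groups, so means under that limit were common. The share of all intervals with this pattern was not counted.

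Interval 28706224 was nearly closed in crest cells. Its double-negative libraries had 22.8, 24.0 and 9.92 CPM at HH18 and 11.9, 22.1 and 12.4 CPM at HH25. No crest library exceeded 3.60 CPM at either stage. The E2-only minus double-negative difference was -4.65 (SE 0.48, edgeR adjusted p = 6e-14) at HH18 and -3.74 (SE 0.40, edgeR adjusted p = 1.06e-12) at HH25. Interval 28471211 had 20.1, 19 and 10.6 CPM in HH18 and 11.7, 23.9 and 12.1 CPM in HH25 double-negative libraries, and double-positive cells were lower at HH25 by -3.36 (SE 0.46, edgeR adjusted p = 4.63e-09), the lowest value among called members. Without HH25 double-positive replicate 1 that value was -5.54 and without replicate 3 it was -2.65. For 28706224 the HH18 value was -5.58 without HH18 E2-only replicate 3.

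Intervals 28180878 and 27232325 had the same profile with a wider spread. The first had 24.9, 18 and 4.45 CPM in HH18 and 13.7, 22.7 and 5.6 CPM in HH25 double-negative libraries. The second had 31.6, 32.0 and 7.52 CPM at HH18 and 10.1, 15.3 and 6.07 CPM at HH25. Replicate 3 was the lowest double-negative library at each stage in both intervals. The libraries numbered 3 at HH18 and HH25 are separate and were not treated as a pair. Why they were low was not tested. E2-only cells were lower at HH18 by -4.32 (SE 0.57, edgeR adjusted p = 2.59e-08) and -5.76 (SE 0.59, edgeR adjusted p = 3.63e-12), respectively.

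At HH18, 76 members (15.6%) were higher and 102 (20.9%) lower in E2-only than in double-negative cells. Over all intervals tested the balance was the opposite, with 19.9% higher and 14.8% lower, and over the rest of chromosome 8 it was 19.5% and 14.1%. The median difference of the members was -0.28, against 0.00 (-0.00228) over all intervals. With library totals alone the members split 53 and 137 (10.9% and 28.1%), all intervals split 15.8% and 20.8%, in the same order, and the median of all intervals moved to -0.23.

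Some members were high in HH18 E2-only cells alone or well above the other populations there. Interval 26281929 had 24.7, 23.4 and 27.2 CPM in HH18 E2-only libraries, 2.63, 1.86 and 1.09 CPM in double-positive and 2.41, 2.00 and 5.47 CPM in double-negative libraries. At HH25 no library exceeded 1.40 CPM. It was higher in E2-only than in double-negative cells at HH18 by 2.83 (SE 0.33, edgeR adjusted p = 7.31e-12) and fell in E2-only cells by 4.54 (SE 0.35, edgeR adjusted p = 8.4e-22).

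Interval 27064819 had 52.5, 49.4 and 51.8 CPM in HH18 E2-only libraries, 16.1, 14.2 and 13.5 CPM in double-positive and 8.05, 4.01 and 9.23 CPM in double-negative libraries. At HH25 its E2-only libraries had 2.92, 2.61 and 3.15 CPM. The fall in E2-only cells was 4.14 log2 units (-4.14, SE 0.26, edgeR adjusted p = 2.72e-27), and it exceeded that in double-negative cells by 2.72 (-2.72, SE 0.49, edgeR adjusted p = 2.38e-05). Intervals 26033547, 26265127 and 28242454 were likewise highest in E2-only cells at HH18, with E2-only means of 27.7, 23.4 and 22.1 CPM, double-positive means of 4.02, 4.56 and 4.10 CPM and double-negative means of 5.6, 5.91 and 4.43 CPM. The first of them kept an E2-only excess over double-positive cells at HH25, where the difference was -1.71 (SE 0.49, edgeR adjusted p = 0.0115). Without HH25 double-positive replicate 2 or replicate 3 it was not called (edgeR adjusted p = 0.0504 and 0.0547).

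From HH18 to HH25, 169 members (34.6%) rose and 103 (21.1%) fell in E2-only cells, against 27.6% and 29.2% of all intervals tested. With library totals alone 206 rose and 70 fell (42.2% and 14.3%), all intervals split 35.9% and 22.6%, and the median of all intervals shifted to 0.32. In double-negative cells 91 (18.6%) rose and 46 (9.43%) fell, against 12.1% and 11.9%. Without HH18 double-negative replicate 1 these were 60 and 31 (12% and 6.2%), against 6.88% and 7.56% of all intervals. Without replicate 3 they were 60 and 40 (12% and 8.03%), against 8.42% and 8.84%. More members rose than fell in both populations, and their risen share exceeded that of all intervals under both scalings. The median change of the members was 0.29 in E2-only and 0.09 in double-negative cells, against 0.00 (-0.00269) and -0.01 over all intervals.

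Some members rose from low densities at HH18 to higher ones at HH25. In both E2-only and double-negative cells 75 members (15.4%) rose, 5 of them in the stretch, against 9.61% of all intervals. Their HH18 means had a median of 1.15 CPM (range 0.272 to 9.47) in E2-only and 1.75 CPM (0.627 to 14.8) in double-negative cells. At HH25 these medians were 8.04 and 8.21 CPM. In double-positive cells the medians were 1.55 CPM at HH18 and 6.25 CPM at HH25. Some members differed there, with HH18 means up to 30.8 CPM and HH25 means down to 1.28 CPM. Interval 27386727 had 0.958, 0.867 and 0.222 CPM in HH18 E2-only and 2.41, 3.00 and 3.76 CPM in HH18 double-negative libraries. At HH25 these populations had 27.8, 29.9 and 28.3 CPM and 29.4, 40.2 and 34.5 CPM. The rise was 5.32 (SE 0.37, edgeR adjusted p = 3.19e-24) in E2-only and 3.51 (SE 0.32, edgeR adjusted p = 6.84e-16) in double-negative cells. The E2-only rise was 6.04 without HH18 E2-only replicate 1. Double-positive cells moved from a mean of 3.50 to 22.5 CPM.

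Interval 27198734 rose from 0.319, 0.867 and 0.443 CPM to 12.9, 14.2 and 14.8 CPM in E2-only cells, by 4.83 (SE 0.47, edgeR adjusted p = 2.27e-16). In double-negative cells it rose by 4.25 (SE 0.52, edgeR adjusted p = 3.17e-10), from 0.268, 2.00 and 0.684 CPM to 11.1, 12.8 and 15.9 CPM, and by 3.64 without HH18 double-negative replicate 1. Intervals 27162927, 27182674 and 27247735 lay within 100 kb of it and rose in both populations too, with E2-only changes of 2.75, 3.39 and 2.68 (SE 0.40, 0.37 and 0.43) and double-negative changes of 2.05, 1.92 and 3.77 (SE 0.39, 0.39 and 0.56). At HH25 interval 27182674 was lower in double-positive cells, with 8.67, 6.48 and 2.82 CPM, than in E2-only cells, with 14.4, 18.1 and 16.6 CPM (-1.53, SE 0.31, edgeR adjusted p = 0.000144).

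In the opposite direction 23 members (4.71%) fell in both E2-only and double-negative cells, against 8.44% of all intervals. Interval 27142188 had 21.6, 32.1 and 24.8 CPM in HH18 E2-only and 19.6, 19 and 9.58 CPM in HH18 double-negative libraries. At HH25 it had 3.13, 3.21 and 1.57 CPM and 1.65, 2.19 and 0.467 CPM. The falls were 3.23 log2 units in E2-only cells (-3.23, SE 0.30, edgeR adjusted p = 4.87e-17) and 3.36 in double-negative cells (-3.36, SE 0.38, edgeR adjusted p = 1.64e-11), so the difference between populations at HH18 was small beside the stage change. Double-positive libraries went from 31.2, 29.1 and 27.4 CPM to 4.90, 5.40 and 4.62 CPM.

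The stage change differed between E2-only and double-negative cells in 102 members, being more positive in E2-only cells in 59 (12.1%) and more negative in 43 (8.81%). Over all intervals tested these shares were 8.59% and 9.59%. With library totals alone the members split 82 and 26 (16.8% and 5.33%), against 13.4% and 5.69% of all intervals. The more negative count was 27 without HH18 double-negative replicate 1 (5.4%, against 5.43% of all) and also without replicate 3 (5.42%, against 6.03%). In 4 members (0.82%) E2-only cells rose while double-negative cells fell and in 1 (0.205%) the reverse, against 0.598% and 0.176% of all intervals. Interval 28826064 had the highest positive difference among the named members, 4.45 (SE 0.71, edgeR adjusted p = 1.88e-06). Its E2-only libraries went from 0.319, 0.434 and 0.443 CPM to 6.68, 12.0 and 10.1 CPM, while its double-negative libraries had 5.36, 6.01 and 6.50 CPM at HH18 and 5.61, 4.78 and 8.87 CPM at HH25.

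**Figure D4:**
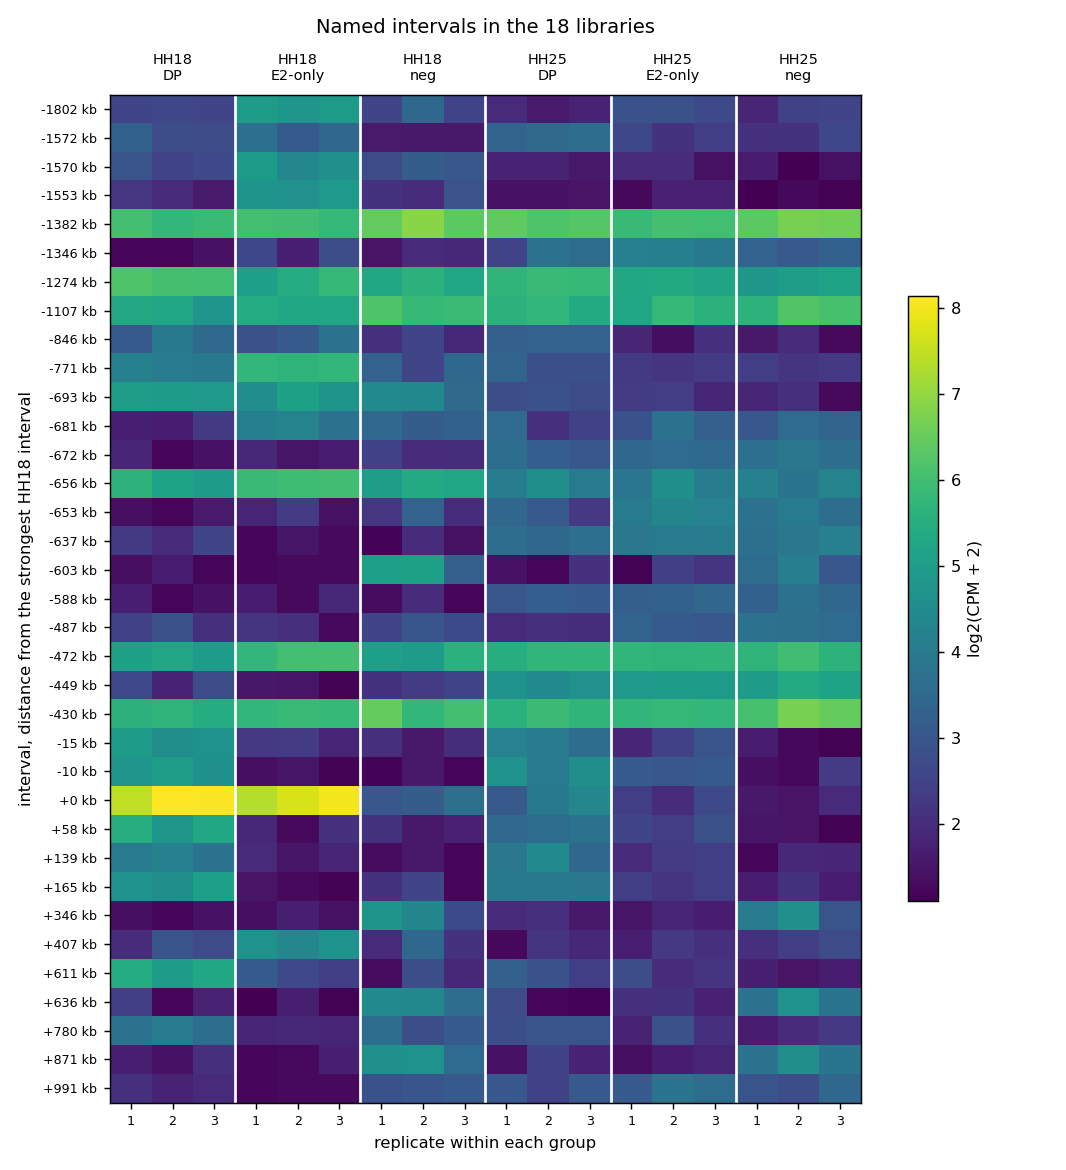
log2(CPM + 2) of 35 named members (rows, in order of position and labelled by distance from the start of 27835367 in kb) in the 18 libraries (columns, replicates 1 to 3 of each group). Replicates within a group resemble each other in most rows. Rows at -15, -10, +58, +139 and +165 kb are bright in both double-positive groups, those at -603, +346, +636 and +871 kb in both double-negative groups, and those at -1553 and -771 kb in HH18 E2-only cells.

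Most members with the highest densities were open in all 6 groups. Interval 26452923 had 64.0, 52.2 and 58.0 CPM in HH18 double-positive and 84.7, 116 and 81.1 CPM in HH18 double-negative libraries, and its group means ran from 58.1 to 94.0 CPM. It was lower in E2-only than in double-negative cells at both stages, by -0.63 (SE 0.16, edgeR adjusted p = 0.000657) at HH18 and -0.62 (SE 0.15, edgeR adjusted p = 0.00166) at HH25. Intervals 27405240, 26728144 and 27363041 had group means of 46.0 to 84.9, 33.4 to 62.4 and 33.1 to 59.2 CPM. Interval 27179831 was high at HH18, with means of 35.6 to 58.9 CPM, and had 15.1 to 17 CPM at HH25. It fell in E2-only cells by 1.81 (SE 0.19, edgeR adjusted p = 4.02e-14). Interval 26561908 was higher in double-positive than in double-negative cells at HH25 by 0.80 (SE 0.17, edgeR adjusted p = 0.000142), with means of 53.1 ± 2.87 and 30.7 ± 3.97 CPM (SD, n = 3).

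Values of HH18 double-positive cells chose the region, so nothing is read from the counts that follow, which only describe how many members passed the same threshold. In that sense 91 members (18.6%) were higher and 97 (19.9%) lower in HH18 double-positive than in double-negative cells, where 18.3% and 13.7% of all intervals were. Against E2-only cells 95 (19.5%) were higher and 72 (14.8%) lower, where 17.7% and 17.9% of all were. From HH18 to HH25 double-positive cells had 98 members (20.1%) higher and 73 (15.0%) lower, where 16.3% and 18.4% of all were. With library totals alone the members split 120 and 58 (24.6% and 11.9%) and all intervals 20.8% and 14.2%. The median of all intervals then shifted to 0.14. Of the 67 members higher in HH25 double-positive than in double-negative cells, 53 were among the 91 at HH18, which is 79.1% of the former and 58.2% of the latter. The same shares over all intervals were 68.4% and 54.2%. Interval 28446655 was such a case, with 42.0, 29.8 and 38.3 CPM in HH18 and 7.54, 5.40 and 3.34 CPM in HH25 double-positive libraries, and an HH25 difference over double-negative cells of 2.20 (SE 0.51, edgeR adjusted p = 0.000459).

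Likeness to the pair was measured by Pearson's r of log2(CPM + 2) over the 6 group means, as a description. Among these is the HH18 double-positive mean, whose values chose the pair, so r is not independent of that choice. The 5 members most like 27825364 all lay within 150 kb of it: 27867045 (r = 0.996), 27911420 (0.980), 27974369 (0.971), 27787181 (0.964) and 27707693 (0.964). All 5 were also in the stretch, which was marked out by HH25 double-positive calls. Those most like 27835367 lay 359 to 1798 kb away, led by 28194758 (r = 0.990) and 28235229 (0.974). Interval 28194758 had HH18 means of 10.6 CPM in double-positive, 12.1 CPM in E2-only and 4.62 CPM in double-negative cells, and 5.08, 3.18 and 3.14 CPM at HH25. As at 27835367 the HH18 crest means were the highest, at far lower levels, but here E2-only cells exceeded double-positive cells at HH18. Between neighbouring members in general the profiles were only weakly alike. The median r was 0.08 (0.0767) for the 91 pairs that started under 2 kb apart and 0.19 for all such pairs in the table.

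Of the 488 tested members, 415 (85%) passed the threshold in at least 1 of the 10 comparisons and 73 (15%) in none, against 82.9% and 17.1% of all tested intervals. A member that was not called may still differ, since a threshold missed at these counts does not show that the populations were alike.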

How the data were processed

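Per the labels, the deposited table holds raw read counts for each interval, and its values are whole numbers. Per the submitters' processing notes the tools were HOMER 4.7, MACS2 and Bowtie 1.0.0 and the build was galGal5, with no role given for any tool. For interval calling, duplicates and any shift of read ends for the transposase offset, no method is given here by the labels or notes. If both reads of a pair were counted, counts overstate the number of fragments. The table's other 9 sample columns name a stage not found in the labels and stayed out of every step. Whether coordinates count from 0 or 1 is open, since 4 intervals of the table start below 1 and the lowest start is -5.

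The 18 libraries entered edgeR 4.0.16 under R 4.3.3. After filterByExpr and TMM scaling, a quasi-likelihood fit over the whole table estimated the mean of each of the 6 groups. P-values were adjusted by Benjamini-Hochberg over the 134020 tested intervals and only the rows of the region are given. The standard error of a fold change is its size divided by the root of F. The labels name biological replicates without naming embryos, so p-values measure the spread between these libraries. The procedure was also run on simulated counts, drawn with the spread that edgeR had estimated and with known changes only in HH25 double-positive libraries. That run checks the steps and cannot show that the scaling or error rate holds for these data. Counting intervals are exact 95% intervals of a ratio of summed counts, and amplified reads are not independent molecules.

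The members, the pair and the tests were chosen with earlier results of these data known. Of 10 comparisons, the 3 that use HH18 double-positive cells are descriptions. The intervals named are the pair, members within 25 kb of it, the 3 highest members of each group, the 3 most changed called members above median abundance in each direction of each comparison (without overlap between groups), the 5 most like each of the pair, and up to 5 higher in HH25 double-positive cells than in both others. They came to 53 intervals, of which the text gives those that show a pattern. Interval 27859099 and the stretch were singled out after the values were seen. Alternatives were DESeq2 1.42.0, other scalings, no filter, a threshold of 0.01, thinning to the lowest library total, a fit to only the compared groups, a replicate block and leaving out each library. Figures were drawn with matplotlib 3.10.9.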

Additional observations from a re-analysis of the deposited data

Results flagged for a closer look

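The 6 members below had the 3 largest called differences in each direction, above median abundance, between the stage changes of E2-only and double-negative cells. The test was edgeR's test of the difference between the 2 stage changes, over all intervals. They were picked by that same test, so their small p-values are partly a result of the choice. Other named members, among them 27064819 and 26033547, were called in it too. A negative value means that E2-only cells moved further down.

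The differences were -2.917 at 26263721 (adjusted p = 0.00144), -3.259 at 27835367 (adjusted p = 0.00117) and -3.468 at 28242454 (adjusted p = 1.56e-05). They were 3.398 at 27232325 (adjusted p = 0.00727), 2.997 at 28615050 (adjusted p = 0.000481) and 4.446 at 28826064 (adjusted p = 1.88e-06). At 26263721 the E2-only mean went from 8.81 to 3.32 CPM and the double-negative mean from 1.03 to 2.97 CPM. At 28242454 they went from 22.1 to 2.10 and from 4.43 to 3.33 CPM. At 28615050 the E2-only mean went from 1.63 to 2.98 CPM while the double-negative mean went from 7.44 to 1.98 CPM. The HH18 double-positive mean there was 12.1 CPM.

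The value at 27232325 was not called without HH18 E2-only replicate 1 (3.32, adjusted p = 0.0502) or without HH25 E2-only replicate 2 (2.87, adjusted p = 0.0701), and it was 4.01 without HH18 double-negative replicate 3 and 4.04 without HH25 E2-only replicate 1. That at 28615050 was 2.40 without HH25 E2-only replicate 2. With every library thinned to the lowest total it was 1.33 (edgeR adjusted p = 0.686), and that at 28242454 was -0.69 (edgeR adjusted p = 0.896). At 27232325, 27835367 and 28826064 the thinned values were 6.79, -4.43 and 4.01, and they were not called either.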

How the results depend on the processing

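No named member changed direction with a call under any alternative run. Thinning every library to the lowest total left 220 members tested and moved every count of called members. In the order of the comparisons HH18 E2-only against double-negative, HH25 double-positive against double-negative, HH25 E2-only against double-negative, HH25 double-positive against E2-only, then the stage change in E2-only and in double-negative cells, 30, 16, 2, 2, 60 and 7 members were called, against 178, 131, 61, 51, 272 and 137 at full depth. In that order the thinned share of members called higher was 5%, 5%, 0.455%, 0.909%, 16.8% and 2.27%. Over all intervals it was 6.8%, 5.2%, 0.297%, 0.38%, 12.3% and 1.06%. The share called lower was 8.64%, 2.27%, 0.455%, 0%, 10.5% and 0.909% of members. Over all intervals it was 5.68%, 1.92%, 0.798%, 0.038%, 13.5% and 1.86%. The thinned interaction had 0 calls by edgeR, with 31 members at an unadjusted p below 0.05, against 102 at full depth by edgeR and 84 by DESeq2. Over all intervals 0.302% were higher and 0.0985% lower in the thinned interaction. By DESeq2 the interaction shares were 10.4% higher and 7.05% lower, against 6.87% and 7.47% of all intervals. The HH18 double-positive comparisons with double-negative and E2-only cells and its stage change had 48, 35 and 20 after thinning, against 188, 167 and 171. Of members 9.55%, 8.18% and 6.36% were then higher, against 11.9%, 10.8% and 4.37% of all intervals. The lower shares were 12.3%, 7.73% and 2.73%, against 7.17%, 7.48% and 5.61%. Fewer reads and fewer members tested limit these counts.

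At an adjusted p below 0.01 the HH25 counts were 84, 33 and 27 in the same order and the interaction had 56. In these 4 the share of members higher was 10%, 1.64%, 4.3% and 6.35%, against 10.7%, 2.55%, 5.26% and 4.49% of all intervals. The share lower was 7.17%, 5.12%, 1.23% and 5.12%, against 5.49%, 2.88%, 1.03% and 4.84%. DESeq2 called 34 between E2-only and double-negative cells at HH25 (2.49% higher and 4.56% lower, against 3.41% and 2.6% of all intervals). Leaving out 1 library gave 33 to 60 there and 91 to 122 for the stage change in double-negative cells. Both highest counts came without HH25 double-negative replicate 1. The 60 were 3.43% higher and 8.67% lower, against 4.92% and 4.63% of all intervals. The 122 were 16.7% and 7.86%, against 10.4% and 11.4%. Shares for both lowest counts are given above. A fit to only the compared groups called 21 of 46 tested members of the stretch higher in HH25 double-positive than in double-negative cells. It called 38 of 380 elsewhere and 15.6% of all intervals higher. Without each of the 6 libraries compared in turn the stretch had 20 to 22. The stretch was marked out after these same HH25 values were seen, so these counts describe it and do not test it. Median-of-ratios factors and no filter moved no count of called members, both directions together, by over 1.5 times, but the former moved the lower calls of HH25 double-positive against E2-only cells from 17 to 27.

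Replicate numbers were not treated as pairs. The correlation of deviations between same-numbered libraries had a median of 0.00514 (range -0.0379 to 0.122), and in 0 of 15 pairs of groups were all 3 over 0.1. For HH25 E2-only and double-negative libraries it was 0.0268 to 0.122, against a median of -0.0387 between other numbers. Whether those libraries were matched cannot be told from these values. With the replicate number as a block, 181, 131, 64, 52, 273 and 133 members were called in the order above, 104 in the interaction and 188, 169 and 170 in the descriptions. In that order the share of members higher was 15.4%, 13.7%, 4.3%, 6.97%, 34.4%, 18%, 12.5%, 18.4%, 19.7% and 20.1%. Over all intervals it was 20%, 14.5%, 5.42%, 8.51%, 27.5%, 11.8%, 8.75%, 18.4%, 17.8% and 16.4%. The share lower was 21.7%, 13.1%, 8.81%, 3.69%, 21.5%, 9.22%, 8.81%, 20.1%, 15% and 14.8% of members. Over all intervals it was 15%, 9.8%, 5.19%, 3.17%, 29.1%, 11.7%, 9.71%, 14%, 18% and 18.5%. Under the block the HH25 E2-only against double-negative differences at 27835367 (1.38, adjusted p = 0.0193) and 27859099 (3.97, adjusted p = 0.0322) were called.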
